A study of Mus musculus with 12 samples.

Results

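The 40 cell cycle and DNA replication genes described here were taken by name from a table of 35275 mouse genes measured by RNA sequencing of lung. All 40 were found, each in 1 row, and all 40 held enough reads to be among the 16042 genes tested. The libraries came from male wild-type C57Bl/6J mice of 3, 6, 12 and 24 months, with 3 mice and 3 libraries per age and each mouse analysed separately. Lungs were minced and kept in RNAlater, so each library is the poly(A) RNA of a mixed tissue, and a fall in a gene from fewer cells of a type cannot be told apart from less RNA per cell. The labels name no other genotype and no treatment.

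In a dividing cell, E2F transcription factors switch on the genes for licensing and copying DNA as the cell leaves G1. Cdc6 and Cdt1 then load the ring of MCM proteins, the replicative helicase, onto origins, and cyclins E and A with their kinases start DNA synthesis. Later in the cycle Foxm1 and Mybl2 act with the MuvB complex on the genes of G2 and mitosis, which encode mitotic kinases, spindle motors, kinetochore proteins and the activators of the anaphase-promoting complex. Adult lung holds few dividing cells, and the levels of these genes in bulk RNA are widely read as a measure of proliferation.

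The libraries held 14.7 to 21.2 M gene reads, of which the 40 genes took 4710 to 9568. Those of 24 months differed from the other 9 in composition. Mean transcript GC content per gene read was 54.1, 54.3 and 55.8% at 24 months, against 50.1 to 51.5% at the younger ages, and mitochondrially encoded genes took 0.443 to 0.629% of reads at 24 months and 1.652 to 2.137% at 3 and 6 months. The TMM scaling factors were 0.521 to 0.826 at 24 months and 1.062 to 1.203 in the other libraries. With TMM, the median log2 fold change of all tested genes at 24 against 3 months was -0.29, on total gene reads it was -1.0, and after a correction that takes each library's smooth trend on transcript GC content and gene length out of the fit it was -0.00. Age and these properties of the libraries cannot be told apart in the 24-month mice, so each 24-month result is given first as fitted and then with the correction. Markers of alveolar, airway, vessel and connective tissue cells had reads at every age. Of markers of other cell types that can divide, the summed level of 7 T cell markers was 78.9 to 115 CPM at 24 months and 30.9 to 41.8 CPM at 3 months, that of 5 B cell markers 214 to 591 CPM at 24 months and 62.9 to 128 CPM at 3 months, and that of 5 granulocyte progenitor markers 8.58 to 11.1 CPM at 24 months and 4.63 to 6.45 CPM at 3 months. At 24 against 3 months 4 of 7 T cell markers were called higher without the correction and 4 with it, 4 and 3 of 5 B cell markers, and 1 and 0 of the 3 granulocyte progenitor markers tested. The median log2 fold change of the latter was 0.84 without and -0.28 with the correction. In the same order, 4 and 4 of 6 alveolar macrophage markers were lower (2 and 1 higher), and 3 and 3 of 4 endothelial markers (1 and 0 higher). Lower were also 3 and 5 of 5 fibroblast markers (2 and 0 higher), and 2 and 1 of 3 germinal centre B cell markers tested (1 and 1 higher). The summed uncorrected level of endothelial markers was 2469 to 3011 CPM at 24 months and 2064 to 2274 CPM at 3 months. In the same order, germinal centre B cell markers had 176 to 235 and 93.7 to 102 CPM. Fibroblast markers had 1211 to 1885 and 1128 to 1275 CPM, which overlapped. Alveolar macrophage markers had 469 to 707 and 728 to 899 CPM. The summed level of 5 thymocyte markers was 2.69 to 4.53 CPM at 24 months and 11.4 to 13.6 CPM at 3 months. Rag1, Rag2, Dntt and Ptcra had 0 reads at 24 months, so the sum there was that of Cd1d1 alone, and Ptcra had 0 at 3 months. Only 1 of the 5 was tested, and it was called lower without and with the correction. The part of these cells in the values below was not tested.

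In levels per kb of gene, as the FPKM deposited by the authors, the 40 genes covered a wide range. At 3 months Pcna, the sliding clamp of the DNA polymerases, led with 45.3 ± 2.93 FPKM (SD, n = 3). Mcm7 followed with 11.4 ± 0.62 FPKM, then Rrm1 with 8.83 ± 0.625 and Mcm6 with 8.63 ± 0.0968 FPKM, the mean of Mcm6 within 1 SD of that of Rrm1. The kinetochore genes Cenpe, with 0.382 ± 0.0289 FPKM, and Cenpf, with 0.266 ± 0.0271 FPKM, were the lowest. At 24 months the order was another one in these FPKM, which carry no GC correction. Mcm5 had 17.5 ± 9.39 FPKM, Mcm7 15.7 ± 2.18 and Mcm2 15.3 ± 2.05 FPKM, which overlapped, and Pcna had 8.98 ± 0.87 FPKM. With the correction Pcna had 39.01 ± 14.1 CPM at 24 months and 47.97 ± 1.89 CPM at 3 months. Whether the order per kb changed with the correction was not tested. Below, levels are CPM on TMM library sizes, fold changes are log2 values ± SE from the edgeR fit on all 12 libraries, and a gene is said to have risen or fallen where its p, adjusted over all genes tested, was under 0.05.

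Between 3 and 24 months the genes of the cycle did not move as a block. Of the 40, 14 rose and 21 fell, and 5 did not pass the test. The rises were among the MCM genes, Cdt1, cyclin E1, mitotic kinases and the 3 transcription factors, and the falls took in all 8 genes of the spindle, kinetochore and cytokinesis, 4 of 5 genes of DNA synthesis, and Mki67. Over all tested genes 38.2% rose and 44.6% fell, 82.8% in all, so the 35 of 40 called here is a share near the background. The median log2 fold change of the 40 was -0.91, against -0.29 for all genes. With the GC and length correction 14 rose and 6 fell, against 30.1% and 28.0% of all genes, and the median of the 40 was 0.18. On total gene reads without TMM, a scaling added after seeing the data, 11 rose and 24 fell, against 26.4% and 53.3% of all genes.

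**Figure D1:**
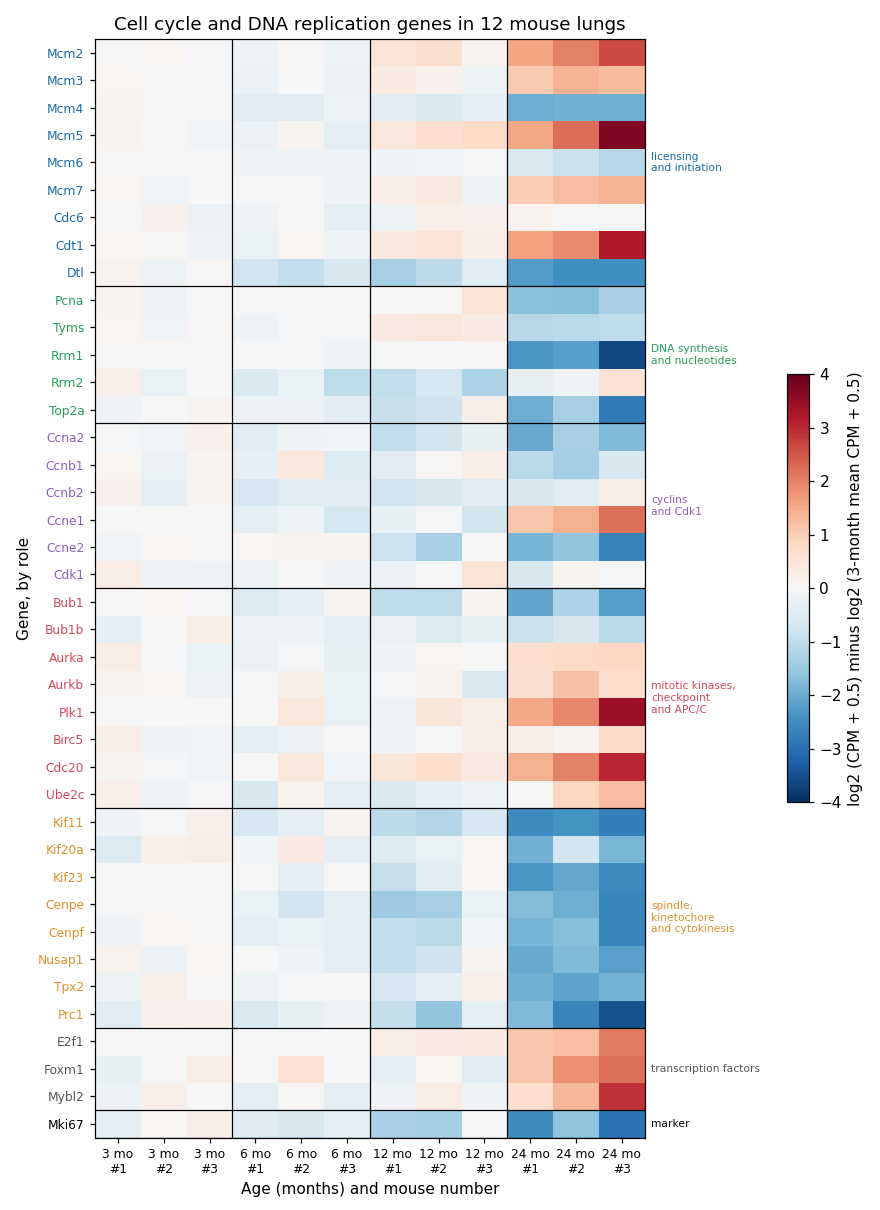
Level of each of the 40 genes (rows, grouped by role) in each of the 12 libraries (columns, 3 mice per age, numbered as in the labels), as log2 (CPM + 0.5) minus the log2 of the 3-month mean plus 0.5. Red is above and blue below the 3-month mean. At 24 months 14 genes rose and 21 fell in these uncorrected values (14 and 6 with the GC and length correction), and the columns of 3 and 6 months are close to white.

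The sign of the change at 24 months followed the GC content of the transcript. The 14 genes that rose had transcripts of 51.4 to 58.3% GC and the 21 that fell had 36.3 to 50.4% GC. Of the 25 genes below 50% GC none rose and 20 fell, and their median log2 fold change was -2.04, where all tested genes below 50% GC had a median of -2.0, with 7.26% higher and 78.3% lower. Of the 15 genes at or above 50% GC, 14 rose and 1, Bub1b, fell, with a median of 1.89, where all tested genes of that range had a median of 1.37, with 69.9% higher and 10.1% lower. Across the 40 genes, which share the same libraries and are not independent, Spearman's rho of GC content and log2 fold change was 0.89, and across all tested genes 0.80. After the correction rho was 0.34 for the 40 genes and 0.09 for all tested genes. The corrected medians of the low and the high GC groups of the 40 were -0.11 and 0.50.

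**Figure D2:**
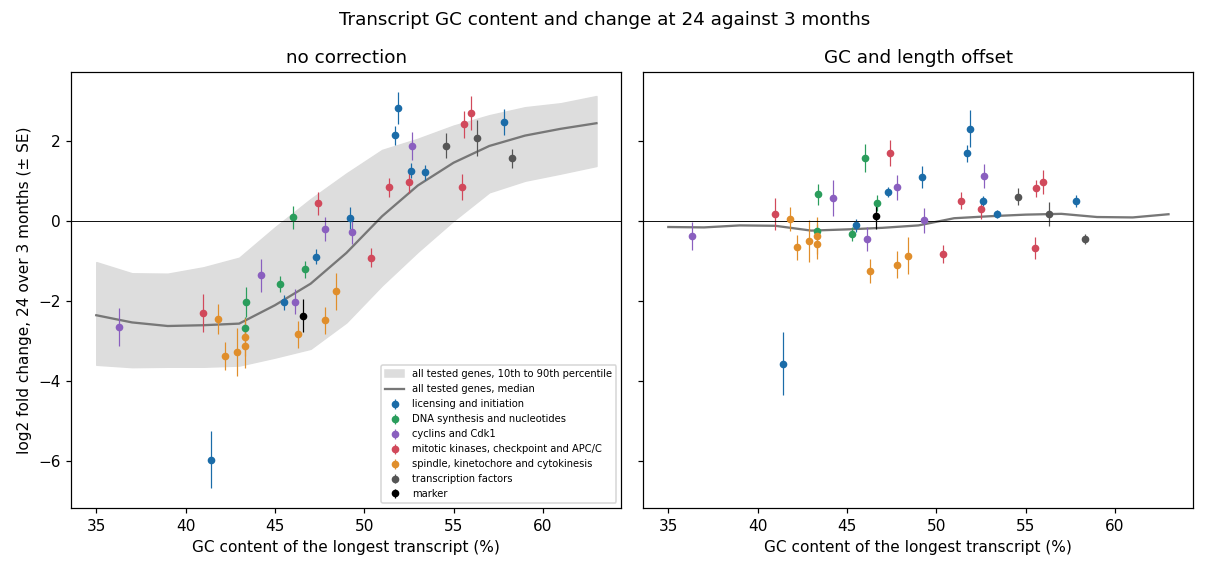
Log2 fold change at 24 over 3 months (vertical axis, ± SE) against GC content of the longest transcript (horizontal axis, %) for the 40 genes, coloured by role, without a correction (left) and with the GC and length offset (right). The grey line is the median of all tested genes per 2% of GC, and the band on the left is their 10th to 90th percentile. On the left the 25 genes below 50% GC have a median of -2.04 and the 15 above it 1.89, and on the right -0.11 and 0.50. Dtl, the lowest point, rests on 1 read at 24 months.

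At 24 months 12 of the 40 were called in the same direction with and without the correction. Mcm2, Mcm3, Mcm5, Cdt1, Ccne1, Plk1, Cdc20 and Foxm1 were higher at 24 months both ways, and Dtl, Bub1b, Kif23 and Tpx2 were lower both ways. Transcript GC content was 51.7 to 57.8% for those higher and 41.4 to 50.4% for those lower. That division was set by the uncorrected calls, which all 12 had to carry. Outside the 12, Mcm6, Cdc6, Rrm2, Top2a, Cdk1 and Birc5, called higher with the correction, had transcripts of 43.4 to 49.2% GC. Ube2c and E2f1, called lower with it, had 55.5 and 58.3% GC. Of these 12, Mcm2, Mcm3, Mcm5, Ccne1, Cdc20, Dtl, Bub1b and Kif23 were called both ways in each of the 6 fits that leave out 1 mouse of 3 or 24 months. 4 genes changed sign between calls. Mcm6 and Top2a fell without the correction and rose with it, and E2f1 and Ube2c rose without it and fell with it. Cdc6, Rrm2, Cdk1 and Birc5 rose with the correction alone. For 15 genes that fell and 4 that rose without it, the corrected change did not pass the test. Ccnb2 passed neither way.

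**Figure D3:**
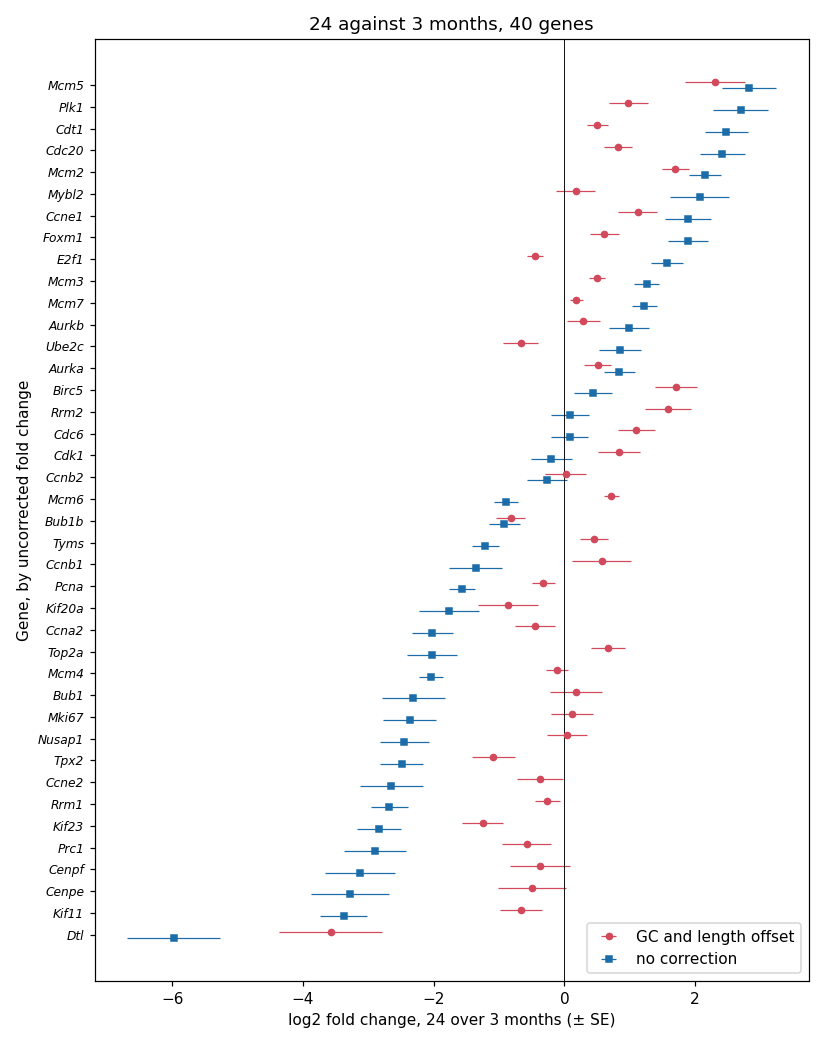
Log2 fold change at 24 over 3 months (horizontal axis, ± SE) of the 40 genes (rows, ordered by the uncorrected value), with the GC and length offset (red circles) and without a correction (blue squares). Mcm5, Mcm2 and Ccne1 stay above 0 and Dtl, Kif23, Tpx2 and Bub1b stay below 0 under both. Mcm6, Top2a, E2f1 and Ube2c change sides and were called on both. Tyms, Ccnb1, Ccnb2, Cdk1, Bub1, Nusap1 and Mki67 also cross 0, without a call on both sides.

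Before the correction, the genes of origin licensing and initiation split within a single complex. The 6 subunits of the MCM ring bind in equal number, yet Mcm2, Mcm3, Mcm5 and Mcm7 rose at 24 months while Mcm4 and Mcm6 fell. Transcript GC content was 51.7 to 53.4% for those that rose, 45.5% for Mcm4 and 47.3% for Mcm6. With the correction Mcm2, Mcm3, Mcm5 and Mcm6 rose, and Mcm4 and Mcm7 did not pass. Mcm2 (mm10 chr6:88883475-88898780) had 16.998, 18.4 and 16.8 CPM at 3 months, 15.2, 17.8 and 15.5 at 6 months, 24.9, 27.7 and 19.1 at 12 months, and 52.7, 71.5 and 108 at 24 months. The 24-month mice lay above the other 9, with a log2 fold change of 2.15 ± 0.24, adjusted p = 1.1e-06 against 3 months and of 1.70 ± 0.21, adjusted p = 1.2e-05 with the correction. Mcm5, shown here after its values were seen, had 14.7, 13.5 and 12.5 CPM at 3 months, 11.3, 14.6 and 10.3 at 6 months, 18.4, 21.8 and 23.7 at 12 months, and 40.7, 65.7 and 184 at 24 months. Its 24-month mice also lay above all others but spread widely among themselves, and the log2 fold change of 2.83 ± 0.41, adjusted p = 1.0e-05 was 2.31 ± 0.46, adjusted p = 0.0011 with the correction. Without 24-month mouse 3 these were 1.97 and 1.40, and both passed. Mcm4 had 26.3, 23.001 and 24.1 CPM at 3 months, 18.3, 18.2 and 21.4 at 6 months, 17.8, 16.4 and 18.9 at 12 months, and 5.84, 6.03 and 5.97 at 24 months. Its 24-month mice were the lowest 3 (log2 -2.04 ± 0.18, adjusted p = 1.6e-07), and with the correction the ages overlapped (log2 -0.11 ± 0.17, adjusted p = 0.6). Mcm6 had 32.9, 30.96 and 32.6 CPM at 3 months, 28.9, 28.2 and 28.3 at 6 months, 28.4, 29.7 and 31.1 at 12 months, and 20.7, 17.01 and 14.2 at 24 months. All 3 mice of 24 months were below the rest (log2 -0.89 ± 0.18, adjusted p = 2.5e-04), and with the correction they had 37.8, 34.1 and 40.7 CPM at 24 months and 24.8, 21.1 and 21.9 CPM at 3 months, above all mice of 3 months (log2 0.72 ± 0.12, adjusted p = 1.5e-04). Mcm3 had 52.8 ± 6.53 CPM at 24 months and 22.04 ± 1.26 CPM at 3 months, and Mcm7 67.3 ± 8.71 CPM at 24 months and 28.8 ± 2.13 CPM at 3 months. Mcm3 rose both ways, by less with the correction (log2 1.26 ± 0.19, adjusted p = 1.7e-05, and 0.50 ± 0.12, adjusted p = 0.0026 once corrected), while Mcm7 had a corrected log2 fold change of 0.18 ± 0.10, adjusted p = 0.16. Mcm7 lies opposite Cops6 and Ap4m1 on the other strand, and the labels do not say whether reads were counted by strand.

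E2F words stood in the promoters of licensing genes that rose and of licensing genes that fell. Windows of 250 bases before to 50 bases after the start, from RefSeq on GRCm38.p6, were found for 33 of the 40 genes. The words TTTGGCGC, TTTCCCGC, TTTCGCGC and TTTGCCGC, searched on both strands, were in the windows of 8 of these 33 genes, or 24.2%, and in 2.60% of 27025 mouse genes. Among the licensing genes 7 of 8 held one, and Mcm2 did not. Median GC content of the windows was 60.7% for the genes of the list and 52.8% for all genes. The shares were not matched for it. Mcm5 (transcript GC 51.9%) and Mcm6 (47.3%) are shown as a pair with the same words and opposite uncorrected change. The 250 bases before the start are given 5′ to 3′ on the gene's strand, Mcm5 from chr8:75109259-75109508 on the plus strand and Mcm6 from chr1:128359706-128359955 on the minus strand, with E2F words in capitals.
Mcm5: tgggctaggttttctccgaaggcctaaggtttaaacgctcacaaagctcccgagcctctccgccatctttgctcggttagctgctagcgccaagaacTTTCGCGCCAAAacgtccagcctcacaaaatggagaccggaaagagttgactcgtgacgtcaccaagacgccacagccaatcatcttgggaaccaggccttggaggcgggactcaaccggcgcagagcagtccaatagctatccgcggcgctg
Mcm6: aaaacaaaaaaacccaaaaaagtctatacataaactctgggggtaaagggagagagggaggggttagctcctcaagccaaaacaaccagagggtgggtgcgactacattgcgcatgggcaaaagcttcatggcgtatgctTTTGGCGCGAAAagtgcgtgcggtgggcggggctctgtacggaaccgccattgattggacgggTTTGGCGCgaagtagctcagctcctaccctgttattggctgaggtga
In Mcm5 the words start at -153 and -149, counted from the start, and overlap on opposite strands. In Mcm6 they start at -110 and -106, overlapping in the same way, and at -47. A match describes letters in this window and not binding.

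Cdt1, which loads the helicase and is destroyed in S phase, had 6.78, 6.64 and 5.84 CPM at 3 months, 5.28, 6.75 and 5.62 at 6 months, 8.48, 9.56 and 7.76 at 12 months, and 21.1, 25.4 and 61.5 at 24 months. The 24-month mice were above all others, mouse 3 most of all (log2 2.48 ± 0.33, adjusted p = 4.5e-06, and 1.85 without it), and with the correction the log2 fold change was 0.50 ± 0.16, adjusted p = 0.015, a call that ended without 24-month mouse 3 (log2 0.31, adjusted p = 0.078) or 3-month mouse 3 (0.46, adjusted p = 0.054). Dtl encodes the receptor of the ubiquitin ligase that destroys Cdt1 on replicating DNA. Dtl (chr1:191537365-191575534) had 61, 43 and 45 reads at 3 months, 20, 18 and 28 at 6 months, 14, 15 and 25 at 12 months, and 1, 0 and 0 at 24 months. At every later age all 3 mice were below all mice of 3 months, and the pooled ratio of 24 to 3 months, on TMM library sizes, was 0.0128 (95% exact interval 0.000323 to 0.0727, counting error alone), and on total gene reads 0.00771 (0.000194 to 0.0436). It was called lower at 24 months without the correction (adjusted p = 1.6e-06) and with it (adjusted p = 0.0014). Cdc6, which loads the helicase with Cdt1, had 2.47 ± 0.154 CPM at 24 months and 2.34 ± 0.420 CPM at 3 months and passed the test with the correction alone (log2 1.10 ± 0.28, adjusted p = 0.0038). In the group of 9, 5 rose and 3 fell without the correction, and 6 rose and 1, Dtl, fell with it.

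**Figure D4:**
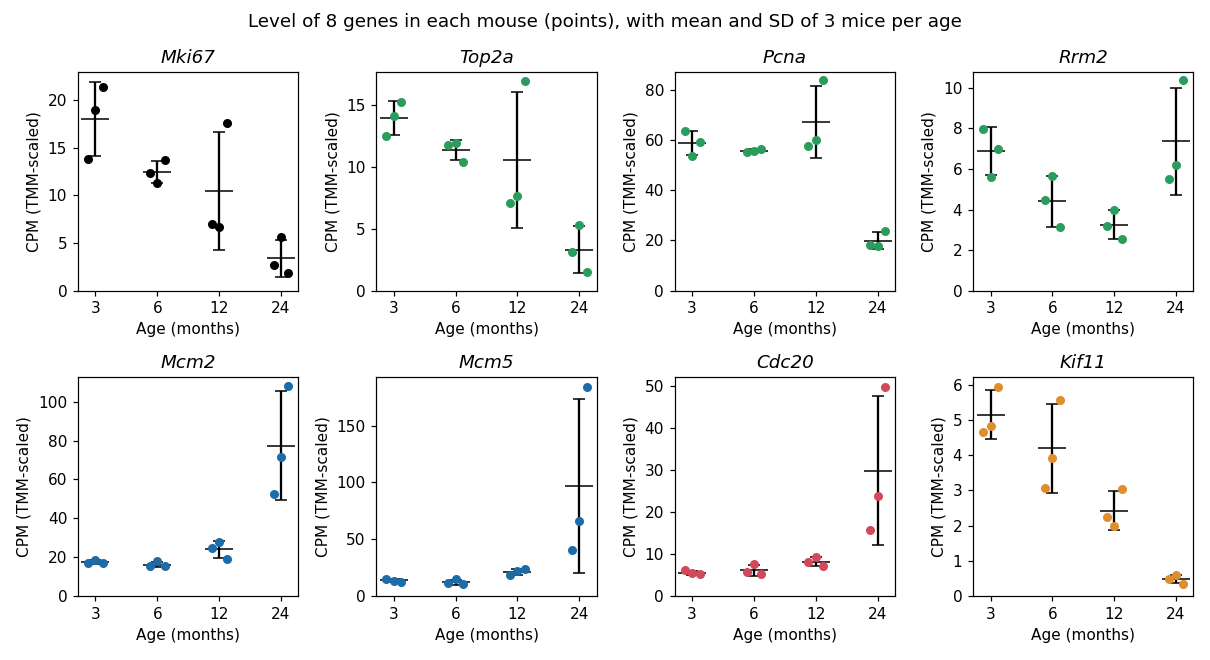
CPM on TMM library sizes (vertical axes, from 0) at 3, 6, 12 and 24 months (horizontal axes) for 8 genes. Points are mice, and the bar and whiskers are the mean and SD of 3 mice. In these uncorrected values Mcm2, Mcm5 and Cdc20 are highest at 24 months, and Mki67, Top2a, Pcna and Kif11 are lowest there. The 24-month mice of Mcm5 spread from 40.7 to 184 CPM. With the GC and length correction Mcm2, Mcm5, Cdc20, Top2a and Rrm2 were called higher at 24 against 3 months. Mki67, Pcna and Kif11 were not called.

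Genes of DNA synthesis and nucleotide supply were mostly lower at 24 months before the correction. Pcna had 63.5, 53.7 and 59.3 CPM at 3 months, 55.4, 55.6 and 56.5 at 6 months, 57.7, 60.2 and 83.8 at 12 months, and 18.2, 17.6 and 23.8 at 24 months. The 24-month mice were below the other 9 (log2 -1.57 ± 0.20, adjusted p = 3.4e-06), and with the correction mouse 3 of 24 months was above the 3-month mice and its 2 age mates below them (log2 -0.32 ± 0.18, adjusted p = 0.14, and -0.63, adjusted p = 2.6e-04, without mouse 3). Rrm1, the large subunit of ribonucleotide reductase, had 31.2, 31.01 and 28.2 CPM at 3 months, 30.4, 29.1 and 26.8 at 6 months, 28.8, 29.1 and 31.2 at 12 months, and 5.60, 6.18 and 1.99 at 24 months. Its 24-month mice were the lowest 3 (log2 -2.68 ± 0.28, adjusted p = 5.9e-07), and with the correction the ages overlapped (log2 -0.26 ± 0.19, adjusted p = 0.26). The small subunit Rrm2, which is made in S phase, did not follow Rrm1. Rrm2 had 7.98, 5.63 and 6.996 CPM at 3 months, 4.46, 5.65 and 3.14 at 6 months, 3.20, 3.98 and 2.57 at 12 months, and 5.51, 6.18 and 10.4 at 24 months. All 12-month mice were below the 3-month mice, and the 24-month mice overlapped with them (log2 0.09 ± 0.29, adjusted p = 0.79 without the correction and 1.59 ± 0.35, adjusted p = 0.0013 with it). On total gene reads its change had the other sign (log2 -0.71, adjusted p = 0.025). Tyms, which makes thymidylate, had 6.62, 5.72 and 6.42 CPM at 3 months, 5.67, 6.05 and 5.89 at 6 months, 7.92, 8.68 and 7.996 at 12 months, and 2.63, 2.69 and 2.81 at 24 months. It was lowest at 24 months (log2 -1.21 ± 0.21, adjusted p = 6.9e-05), and with the correction its 24-month mice were above those of 3 months without passing the test (log2 0.45 ± 0.21, adjusted p = 0.076), which it did without 24-month mouse 1 (0.60, adjusted p = 0.038). Top2a, the topoisomerase that untangles sister chromatids, had 12.5, 14.1 and 15.2 CPM at 3 months, 11.8, 11.9 and 10.4 at 6 months, 7.09, 7.68 and 16.9 at 12 months, and 3.13, 5.31 and 1.52 at 24 months. It was lowest in the 24-month mice, while 12-month mouse 3 was the highest of all 12 (log2 -2.03 ± 0.38, adjusted p = 1.3e-04 at 24 against 3 months). With the correction Top2a was higher at 24 months (log2 0.67 ± 0.26, adjusted p = 0.039), a call that ended without 24-month mouse 2 (0.23, adjusted p = 0.49) and without any 1 of the 3-month mice (0.64 to 0.68, adjusted p = 0.073 to 0.094). In this group of 5 none rose and 4 fell without the correction, and 2 rose and none fell with it.

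Cyclins of the same family moved apart at 24 months before the correction. Cyclin E1 and cyclin E2 both activate Cdk2 at the start of S phase. Ccne1 had 1.70, 1.76 and 1.68 CPM at 3 months, 1.21, 1.46 and 0.854 at 6 months, 1.30, 1.66 and 0.817 at 12 months, and 4.28, 5.45 and 9.60 at 24 months. Its 24-month mice were above the rest (log2 1.89 ± 0.35, adjusted p = 1.1e-04), and the rise held with the correction (log2 1.12 ± 0.30, adjusted p = 0.005). Ccne2, whose transcript at 36.3% GC is the lowest of the 40, had 3.10, 3.61 and 3.47 CPM at 3 months, 3.63, 3.78 and 3.68 at 6 months, 1.64, 1.05 and 3.44 at 12 months, and 0.576, 0.800 and 0.117 at 24 months. It was lowest in the 24-month mice (log2 -2.65 ± 0.48, adjusted p = 1.0e-04), and with the correction the ages overlapped (log2 -0.37 ± 0.35, adjusted p = 0.4). Its locus overlaps Ints8 on the other strand. Ccna2, the cyclin of S phase and G2, had 4.55, 4.44 and 5.42 CPM at 3 months, 3.36, 4.28 and 4.40 at 6 months, 2.16, 2.71 and 3.79 at 12 months, and 0.823, 1.60 and 1.05 at 24 months. At 24 months all mice were below the other 9 (log2 -2.02 ± 0.32, adjusted p = 2.6e-05, and -0.45 ± 0.30, adjusted p = 0.21 once corrected). Ccna2 overlaps Exosc9 on the other strand. Cdk1, the kinase that drives entry into mitosis, had 4.59, 3.25 and 3.10 CPM at 3 months, 3.14, 3.68 and 3.23 at 6 months, 3.03, 3.48 and 5.60 at 12 months, and 2.14, 3.999 and 3.40 at 24 months. The ages overlapped, the change at 24 months did not pass the test (log2 -0.20 ± 0.31, adjusted p = 0.55), and with the correction it passed (log2 0.84 ± 0.32, adjusted p = 0.037) although mice of the ages still overlapped. That call ended without either of 2 mice of 24 months or 2 mice of 3 months (0.66 to 0.76, adjusted p = 0.11 to 0.15). Cyclins B1 and B2 are the partners of Cdk1 in mitosis. Ccnb1 had 0.988 ± 0.382 CPM at 24 months and 2.47 ± 0.388 CPM at 3 months (log2 -1.36 ± 0.41, adjusted p = 0.0059, and 0.57 ± 0.45, adjusted p = 0.3 once corrected). Ccnb2 had 3.19 ± 1.41 CPM at 24 months and 3.77 ± 0.794 CPM at 3 months (log2 -0.27 ± 0.31, adjusted p = 0.43, and 0.02 ± 0.31, adjusted p = 0.96 once corrected), and without 24-month mouse 3 it was called lower before the correction (-0.66, adjusted p = 0.042).

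Among mitotic kinases, checkpoint genes and regulators of the anaphase-promoting complex, 5 rose and 2 fell at 24 months, and with the correction 3 rose and 2 fell. Plk1, a kinase of mitotic entry and spindle assembly, had 3.31, 3.43 and 3.42 CPM at 3 months, 3.47, 4.69 and 2.74 at 6 months, 2.94, 4.92 and 4.09 at 12 months, and 10.6, 14.1 and 41.8 at 24 months. The 24-month mice were above the other 9, mouse 3 by far (log2 2.70 ± 0.42, adjusted p = 2.4e-05, and 1.87 without it). With the correction the log2 fold change was 0.98 ± 0.30, adjusted p = 0.013, and 0.49 (adjusted p = 0.091) without 24-month mouse 3. Cdc20 (chr4:118432901-118437352), the activator that turns the anaphase-promoting complex on in mitosis, had 6.08, 5.41 and 5.15 CPM at 3 months, 5.67, 7.61 and 5.17 at 6 months, 8.05, 9.29 and 7.24 at 12 months, and 15.8, 23.9 and 49.9 at 24 months. All 24-month mice were above all others (log2 2.42 ± 0.34, adjusted p = 7.4e-06, and 0.82 ± 0.22, adjusted p = 0.0054 once corrected). Cdc20 overlaps Elovl1 on the other strand, a gene with 112536 reads over the 12 libraries where Cdc20 had 2162. Ube2c, the ubiquitin-conjugating enzyme of the same complex, had 4.67, 3.52 and 3.89 CPM at 3 months, 2.42, 4.54 and 2.92 at 6 months, 2.55, 3.10 and 3.50 at 12 months, and 4.03, 7.71 and 10.2 at 24 months. Its ages overlapped, it passed as higher at 24 months (log2 0.85 ± 0.32, adjusted p = 0.024), and with the correction it passed as lower (log2 -0.67 ± 0.27, adjusted p = 0.044). Both calls were near the threshold, and each ended without any 1 of the 3-month mice, the first also without 24-month mouse 2 or 3 and the second without 24-month mouse 1. Bub1, a kinase of the spindle checkpoint, had 3.35, 3.61 and 3.21 CPM at 3 months, 2.15, 2.57 and 3.73 at 6 months, 1.43, 1.44 and 3.68 at 12 months, and 0.412, 1.16 and 0.351 at 24 months. It was lowest at 24 months (log2 -2.31 ± 0.48, adjusted p = 3.4e-04, and -3.11 without 24-month mouse 2), and overlapped with the correction (log2 0.18 ± 0.40, adjusted p = 0.72). Its partner Bub1b, which holds back Cdc20 until chromosomes are attached, had 4.33 ± 0.774 CPM at 24 months and 8.30 ± 1.89 CPM at 3 months. Bub1b was lower at 24 months by about the same amount without the correction (log2 -0.92 ± 0.24, adjusted p = 0.0021) and with it (log2 -0.82 ± 0.22, adjusted p = 0.0052). Of the Aurora kinases, Aurka had 5.55 ± 0.338 CPM at 24 months and 3.07 ± 0.703 CPM at 3 months (log2 0.84 ± 0.24, adjusted p = 0.0047). Aurkb had 4.39 ± 1.05 CPM at 24 months and 2.20 ± 0.315 CPM at 3 months (log2 0.99 ± 0.30, adjusted p = 0.0069). Neither passed with the correction (0.51 ± 0.21, adjusted p = 0.051 for Aurka and 0.29 ± 0.25, adjusted p = 0.33 for Aurkb), although Aurka did without 3-month mouse 1 (0.63, adjusted p = 0.036). The uncorrected calls ended without 3-month mouse 3 (0.49, adjusted p = 0.12 for Aurka, and 0.67, adjusted p = 0.1 for Aurkb) and, for Aurka, also without 3-month mouse 2 (0.59, adjusted p = 0.079). Birc5, survivin, a partner of Aurkb at the centromere, had 3.73 ± 1.04 CPM at 24 months and 2.72 ± 0.513 CPM at 3 months and rose with the correction alone (log2 1.71 ± 0.32, adjusted p = 3.8e-04).

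All 8 genes of the spindle, kinetochore and cytokinesis fell at 24 months, with log2 fold changes of -3.38 to -1.76 and transcripts of 41.8 to 48.4% GC, and with the correction 2 fell and none rose. Kif11 (chr19:37376403-37421859), the motor that pushes spindle poles apart, had 4.67, 4.84 and 5.94 CPM at 3 months, 3.08, 3.93 and 5.57 at 6 months, 2.25, 1.99 and 3.04 at 12 months, and 0.494, 0.582 and 0.351 at 24 months. Its 24-month mice had a few reads each and were below all others (log2 -3.38 ± 0.36, adjusted p = 6.4e-07), and with the correction they stayed below the 3-month mice without passing the test (log2 -0.66 ± 0.32, adjusted p = 0.093). Kif23, a motor of the midzone that sets up cytokinesis, had 5.997, 5.50 and 5.89 CPM at 3 months, 5.50, 4.44 and 6.06 at 6 months, 2.81, 4.15 and 6.13 at 12 months, and 0.741, 1.02 and 0.586 at 24 months. It was lowest at 24 months both without the correction (log2 -2.84 ± 0.34, adjusted p = 2.0e-06) and with it (log2 -1.25 ± 0.31, adjusted p = 0.0035). Tpx2, which nucleates spindle microtubules and activates Aurka, had 4.05, 5.54 and 4.79 CPM at 3 months, 4.07, 4.59 and 4.72 at 6 months, 2.81, 3.65 and 5.54 at 12 months, and 0.905, 0.727 and 0.937 at 24 months. Its lowest 3 mice were those of 24 months (log2 -2.49 ± 0.33, adjusted p = 4.0e-06). With the correction Tpx2 was lower (log2 -1.09 ± 0.33, adjusted p = 0.012), and had -0.92 (adjusted p = 0.067) without 24-month mouse 2. The genes of Kif20a and Nusap1 overlap Cdc23 and Oip5 on the other strand. The other 5, Kif20a, Cenpe, Cenpf, Nusap1 and Prc1, had corrected log2 fold changes of -0.87 ± 0.46, -0.50 ± 0.52, -0.37 ± 0.46, 0.04 ± 0.30 and -0.58 ± 0.38, none of which passed. Without 24-month mouse 2 Kif20a was lower (-1.82, adjusted p = 0.013, and -2.74 without the correction), and without 24-month mouse 1 so was Prc1 (-1.29, adjusted p = 0.024, and -3.75 without the correction). Cenpe and Cenpf, which tie chromosomes to spindle fibres, had no reads in 24-month mouse 3 and 4 to 6 reads in the other 24-month mice, against 49 to 61 in mice of 3 months.

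Late genes shared a second promoter word across directions. The words TTTGAA and TTCGAA, forms of the cell cycle genes homology region or CHR, were searched on both strands and stood in the windows of 16 of 33 genes, or 48.5%, against 21.7% of 27025 genes. Of the mitotic kinase and checkpoint group 6 of 7 held one, and of the spindle group 4 of 6. All 16 also held CCAAT, which was in 75.8% of the 33 and in 41.1% of all genes. Cdc20 (transcript GC 55.6%), which rose without the correction, and Kif11 (42.2%), which fell, carry the CHR word at almost the same place and are shown. With the correction Cdc20 rose and Kif11 did not pass (log2 -0.66 ± 0.32, adjusted p = 0.093). The 250 bases before the start run from chr4:118437344-118437593 on the minus strand for Cdc20 and from chr19:37376132-37376381 on the plus strand for Kif11, with the CHR word in capitals.
Cdc20: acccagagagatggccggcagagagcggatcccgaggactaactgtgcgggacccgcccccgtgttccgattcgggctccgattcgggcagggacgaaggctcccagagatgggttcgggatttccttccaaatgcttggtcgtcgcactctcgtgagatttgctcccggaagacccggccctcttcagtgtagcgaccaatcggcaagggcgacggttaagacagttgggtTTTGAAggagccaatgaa
Kif11: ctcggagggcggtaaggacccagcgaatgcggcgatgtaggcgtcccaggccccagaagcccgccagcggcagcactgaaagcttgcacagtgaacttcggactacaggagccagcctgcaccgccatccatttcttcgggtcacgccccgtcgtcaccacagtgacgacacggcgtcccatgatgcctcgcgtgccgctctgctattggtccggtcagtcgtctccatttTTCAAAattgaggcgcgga
The word starts at -18 in Cdc20 and at -19 in Kif11, where it is on the opposite strand. Median GC content of the promoter windows was 59.0% for genes that rose without the correction and 61.8% for genes that fell. The difference in transcript GC between them was thus not seen in the promoters.

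The 3 transcription factors of the list rose at 24 months before the correction. E2f1, an activator of S phase genes, had 10.6, 10.03 and 10.5 CPM at 3 months, 9.96, 9.98 and 10.3 at 6 months, 12.98, 13.2 and 13.8 at 12 months, and 22.8, 24.3 and 45.7 at 24 months. Its 24-month mice were above the rest (log2 1.57 ± 0.24, adjusted p = 1.9e-05), and with the correction they had 12.1, 11.5 and 11.2 CPM at 24 months and 15.6, 15.4 and 16.6 CPM at 3 months, below all others (log2 -0.45 ± 0.12, adjusted p = 0.0058). Foxm1, which drives genes of G2 and mitosis, had 3.39, 4.002 and 5.42 CPM at 3 months, 4.35, 6.55 and 4.27 at 6 months, 3.33, 4.53 and 3.09 at 12 months, and 9.88, 16.3 and 21.4 at 24 months. The 24-month mice were above all others (log2 1.89 ± 0.31, adjusted p = 3.2e-05), and with the correction Foxm1 was higher (log2 0.61 ± 0.22, adjusted p = 0.029) although a 24-month mouse overlapped the young ones. Leaving out 24-month mouse 2 or 3, or 3-month mouse 1 or 2, ended the corrected call (0.48 to 0.55, adjusted p = 0.082 to 0.11). Mybl2, the partner of MuvB, had 2.56, 3.69 and 3.10 CPM at 3 months, 2.26, 3.23 and 2.29 at 6 months, 2.73, 3.98 and 2.68 at 12 months, and 5.27, 8.58 and 26.1 at 24 months. The 24-month mice were above the others and 24-month mouse 3 was highest (log2 2.07 ± 0.45, adjusted p = 4.9e-04, and 1.15 without it), and with the correction the ages overlapped (log2 0.17 ± 0.30, adjusted p = 0.64).

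Mki67, whose protein coats mitotic chromosomes and is the common stain for cycling cells, had 13.8, 18.999 and 21.4 CPM at 3 months, 12.4, 11.3 and 13.7 at 6 months, 7.05, 6.69 and 17.6 at 12 months, and 2.72, 5.60 and 1.87 at 24 months. It was lowest in the 24-month mice, and 12-month mouse 3 stood among the 3-month mice while its 2 age mates lay below them. The log2 fold change at 24 against 3 months was -2.37 ± 0.41, adjusted p = 5.7e-05. With the correction Mki67 had 7.22, 16.4 and 8.35 CPM at 24 months and 9.33, 10.1 and 10.9 CPM at 3 months, the ages overlapped and the log2 fold change was 0.12 ± 0.32, adjusted p = 0.76. Mki67 and Top2a, which are often read together as marks of cycling cells, thus had log2 fold changes of -2.37 ± 0.41 and -2.03 ± 0.38 as fitted and of 0.12 ± 0.32 and 0.67 ± 0.26 with the correction.

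At 12 against 3 months few genes of the cycle changed. In the fit on all 12 libraries none of the 40 rose, where 6.30% of all genes did, and 3 fell, Dtl, Rrm2 and Kif11, where 8.87% did. Their log2 fold changes were -1.24 ± 0.38, adjusted p = 0.04 for Dtl, -1.08 ± 0.30, adjusted p = 0.029 for Rrm2 and -1.09 ± 0.28, adjusted p = 0.023 for Kif11, and each was below all 3-month mice at 12 months. Leaving out any 1 of the 6 mice ended the call of Rrm2, any but 12-month mouse 3 that of Dtl, and any but 12-month mouse 3 and 3-month mouse 1 that of Kif11 (adjusted p = 0.054 to 0.14). With the correction 1 gene, Tyms, rose (log2 0.69 ± 0.18, adjusted p = 0.019), against 9.87% of all genes, and none fell, against 8.14%. That call ended without 3-month mouse 2 or 3 or 12-month mouse 2 (0.62 to 0.69, adjusted p = 0.063 to 0.095). The 12-month mice were not alike. Mouse 3 had the highest level of the 3 in 25 of the 40 genes, among them Mki67 with 302 reads against 163 and 121, and its mitochondrial share of reads was 3.12% against 1.952 and 1.956%. Mean transcript GC content per gene read was 50.4% in mouse 3, 51.4 and 51.5% in its age mates, and 50.1 to 50.3% at 3 months. Without mouse 3, 11 genes fell at 12 months, against 14.0% of all. Among them were Mki67 (log2 -1.39, adjusted p = 0.016), Cenpe (-1.94, adjusted p = 0.013) and Nusap1 (-1.04, adjusted p = 0.017). With the correction Mki67, Cenpe and Nusap1 were not called in that fit, and leaving out any 1 mouse gave 0 to 2 genes lower.

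A fit on the 9 libraries of 3, 6 and 12 months, which takes the 24-month spread out of the estimate of error, called more of the 40. Mcm2 (log2 0.47 ± 0.17, adjusted p = 0.045), Mcm5 (0.66 ± 0.17, adjusted p = 0.012) and Cdc20 (0.57 ± 0.20, adjusted p = 0.043) rose at 12 months, 3 genes against 18.8% of all tested. Mcm4, Dtl, Rrm2, Ccna2, Ccnb2, Kif11, Cenpe and Prc1 fell, 8 genes against 17.0% of all, with log2 fold changes of -1.24 to -0.46. With the correction in the same fit Mcm2 (0.46 ± 0.10), Mcm5 (0.70 ± 0.20), Tyms (0.69 ± 0.14) and Rrm1 (0.42 ± 0.13) rose, 4 genes against 17.6%, and Dtl (-0.79 ± 0.27), Rrm2 (-0.94 ± 0.25) and Ccnb2 (-0.87 ± 0.21) fell, 3 genes against 12.4%. Of the genes called at 12 months in both of these fits, Mcm2 and Mcm5 were higher and Dtl, Rrm2 and Ccnb2 were lower.

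At 6 against 3 months no gene of the 40 and no gene of the whole table passed the test (0% higher and 0% lower). With the correction 1 gene outside the list did (0.00627% of all), DESeq2 called 6 genes and limma voom none, with none of the 40 among them. At an unadjusted p under 0.05 edgeR had 2 of the 40, Dtl (log2 -1.05 ± 0.37) and Rrm2 (log2 -0.64 ± 0.29), both lower, and 267 of all genes, or 1.66%. The values of the list nevertheless leaned one way. 36 of the 40 had a negative log2 fold change, against 52.4% of all genes, and the median was -0.18, against -0.01. In 10 genes all 3 mice of 6 months were below all 3 of 3 months, which was so for 5.28% of all genes. These were Mcm4, Mcm6, Dtl, Top2a, Ccna2, Ccnb2, Ccne1, Cenpe, Cenpf and Mki67, with log2 fold changes of -1.05 to -0.18. The opposite held for 1 gene, Ccne2 (log2 0.12 ± 0.38), and for 5.58% of all genes. With the correction 34 of the 40 were negative, 8 were lower without overlap, against 6.19% of all genes, 1 was higher, against 6.73%, and the median stayed at -0.18, where that of all genes was -0.00. The genes of the list are not independent, and the comparisons of 6, 12 and 24 months share the same 3-month mice, so a high value in those mice lowers all of them. For Dtl the uncorrected log2 fold change was -1.05 ± 0.37 at 6 months and -1.24 ± 0.38 at 12 months. At 24 months, with 1 read, its pooled ratio, which is not a log2 value, was 0.0128 on TMM library sizes. Its corrected values were -0.97 ± 0.30 at 6 months and -0.79 ± 0.31 at 12 months. For Mki67 the uncorrected values at 6, 12 and 24 months were -0.53 ± 0.37, -0.79 ± 0.37 and -2.37 ± 0.41. With the correction they were -0.41 ± 0.28, -0.17 ± 0.28 and 0.12 ± 0.32, so the uncorrected order was not kept.

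**Figure D5:**
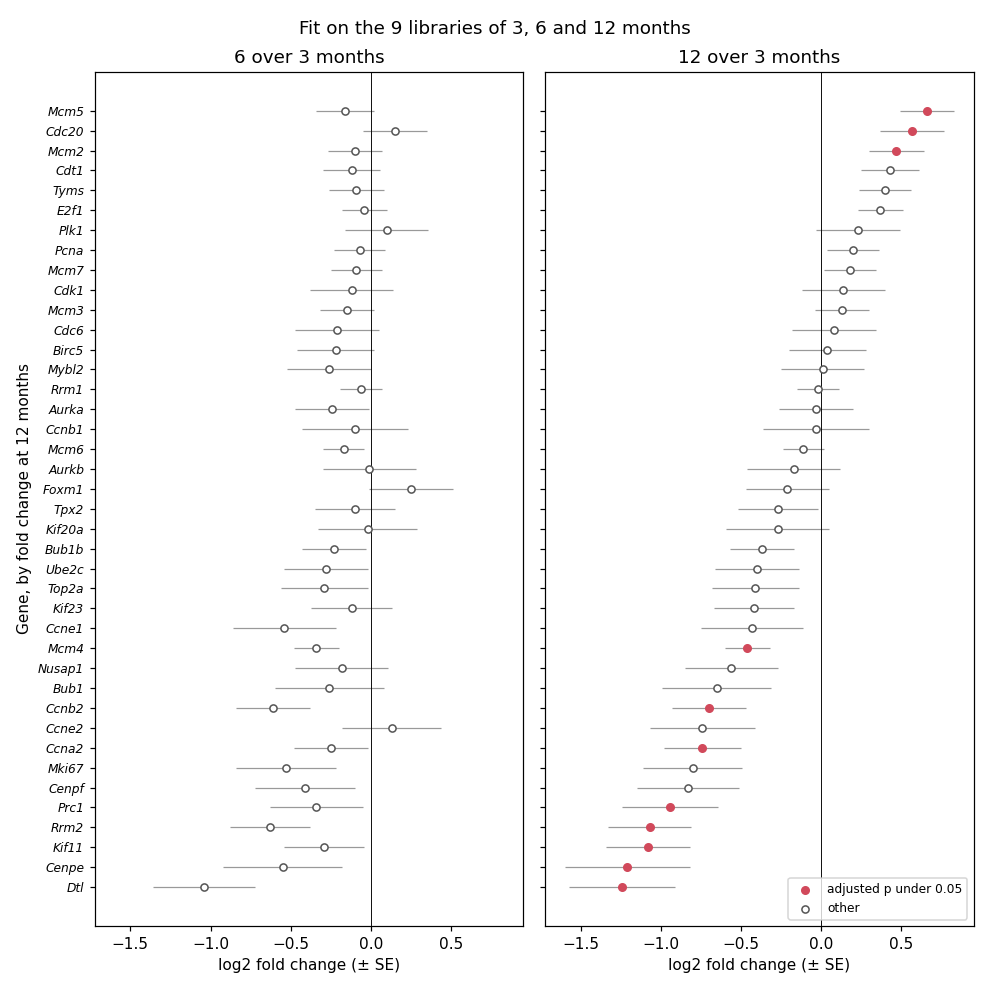
Log2 fold change (horizontal axes, ± SE) at 6 over 3 months (left) and 12 over 3 months (right) in the fit on the 9 libraries of 3, 6 and 12 months, for the 40 genes (rows, ordered by the value at 12 months). Filled points passed at an adjusted p under 0.05, 3 higher and 8 lower at 12 months and none at 6 months, where most points lie left of 0.

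At 24 against 12 months, 15 of the 40 rose, against 37.3% of all genes, and 21 fell, against 42.5%, with a median log2 fold change of -0.66 for the 40 and -0.20 for all genes. With the correction 13 rose, against 22.1%, and 6 fell, against 22.5%, and the median of the 40 was 0.33, where that of all genes was -0.01. Taking all ages in 1 test, 36 of the 40 differed among ages, against 84.6% of all genes, and 21 with the correction, against 58.4%. The comparison with 12 months shares the 24-month libraries with the one above and adds no independent support to it. Rrm2, lowest at 12 months, was among the genes that rose at 24 against 12 months both without and with the correction.

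The other genes of the pathway, in lists that leave out the 40, also held genes called in both directions at 24 against 3 months. The shares of all genes to read these counts against are the 38.2% higher and 44.6% lower given above, and 30.1% and 28.0% with the correction. Of 48 tested replication genes 14 rose and 26 fell, and with the correction 16 rose and 15 fell (medians -1.29 and 0.13). Orc2 and Orc3, subunits of the origin recognition complex, fell, with log2 fold changes of -3.30 ± 0.28, adjusted p = 9.5e-08 for Orc2 and -2.90 ± 0.35, adjusted p = 2.0e-06 for Orc3, as did Cdc7, the kinase that fires licensed origins, with -3.72 ± 0.39, adjusted p = 5.0e-07. Each also fell with the correction (-1.16 ± 0.19, adjusted p = 1.7e-04, -0.45 ± 0.18, adjusted p = 0.039 and -1.48 ± 0.39, adjusted p = 0.0046). Pold2, a subunit of DNA polymerase delta, rose (2.31 ± 0.22, adjusted p = 2.4e-07, and 0.34 ± 0.12, adjusted p = 0.023 once corrected). Of 64 tested mitotic genes 17 rose and 34 fell, and with the correction 17 rose and 13 fell (medians -1.39 and 0.01). Anln, a scaffold of the cleavage furrow, Ect2, which activates RhoA there, and Ska2, of the kinetochore, fell, with log2 fold changes of -3.48 ± 0.41, adjusted p = 1.5e-06 for Anln, -3.63 ± 0.39, adjusted p = 6.9e-07 for Ect2 and -3.51 ± 0.32, adjusted p = 1.9e-07 for Ska2. With the correction each also fell, with -1.08 ± 0.32, adjusted p = 0.01 for Anln, -0.99 ± 0.34, adjusted p = 0.023 for Ect2 and -1.07 ± 0.29, adjusted p = 0.006 for Ska2. Kif15, a spindle motor, had 0.0485 ± 0.0840 CPM at 24 months and 2.39 ± 0.300 CPM at 3 months and was called lower both ways.

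Regulators of the cycle outside the list are read against the same shares. Of 11 G1 cyclins, kinases and related genes 4 rose and 3 fell, and with the correction 7 rose and 1 fell. Ccnd3, the D cyclin of lymphoid cells among others, had 775 ± 420 CPM at 24 months and 107 ± 7.98 CPM at 3 months and rose both ways (log2 2.85 ± 0.30, adjusted p = 6.1e-07, and 0.95 ± 0.15, adjusted p = 1.1e-04 once corrected). Ccnd2 had 35.004 ± 1.27 CPM at 24 months and 131 ± 20.4 CPM at 3 months and fell (log2 -1.90 ± 0.23, adjusted p = 1.6e-06), with 0.19 ± 0.21, adjusted p = 0.44 after the correction. Cdk7 and Ccnh, which form the kinase that activates other CDKs, fell (-2.46 ± 0.21, adjusted p = 1.1e-07 and -2.19 ± 0.25, adjusted p = 1.3e-06) while with the correction Cdk7 passed as higher (0.34 ± 0.14, adjusted p = 0.044) and Ccnh did not pass (-0.13 ± 0.19, adjusted p = 0.57). Of 10 CDK inhibitors and pocket proteins 4 rose and 5 fell, and with the correction 1 rose and 4 fell. Cdkn1a, the inhibitor p21, had 293 ± 76.2 CPM at 24 months and 74.1 ± 9.45 CPM at 3 months and rose both ways (log2 1.98 ± 0.24, adjusted p = 1.8e-06, and 0.71 ± 0.18, adjusted p = 0.0034 once corrected). Cdkn1b, the inhibitor p27, fell (log2 -2.40 ± 0.18, adjusted p = 5.4e-08) and had 0.32 ± 0.24, adjusted p = 0.26 with the correction. Rbl2, the pocket protein p130 of quiescent cells, fell both ways (-3.15 ± 0.31, adjusted p = 3.1e-07, and -1.27 ± 0.19, adjusted p = 6.2e-05), and its relative Rbl1 fell without the correction and did not pass with it (-3.27 ± 0.28, adjusted p = 1.1e-07, and -0.50 ± 0.25, adjusted p = 0.095).

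Of 15 other E2F, DP and MuvB genes 4 rose and 10 fell, and with the correction 2 rose and 6 fell, with a median of -0.53. E2f2, an activator like E2f1, rose both ways (log2 2.34 ± 0.29, adjusted p = 2.2e-06, and 0.54 ± 0.15, adjusted p = 0.0065), where E2f1 fell with the correction. E2f5, a repressor of quiescent cells, fell both ways (-2.86 ± 0.24, adjusted p = 9.7e-08, and -1.84 ± 0.17, adjusted p = 9.9e-07), as did Lin52 of MuvB (-2.30 ± 0.22, adjusted p = 2.4e-07, and -0.56 ± 0.14, adjusted p = 0.0036). Tfdp2, a dimer partner of E2F proteins, fell (-2.78 ± 0.26, adjusted p = 2.0e-07) and had -0.19 ± 0.13, adjusted p = 0.21 with the correction. Of 15 subunits and cofactors of the anaphase-promoting complex 7 rose and 7 fell, and with the correction 11 rose and 2 fell, with a median of 0.80. Anapc7 had 89.7 ± 2.06 CPM at 24 months and 31.5 ± 2.87 CPM at 3 months and rose by nearly the same amount both ways (1.51 ± 0.17, adjusted p = 1.3e-06, and 1.49 ± 0.12, adjusted p = 3.5e-07). Anapc4 and Cdc16 fell both ways (-3.27 ± 0.29, adjusted p = 1.6e-07 and -2.39 ± 0.25, adjusted p = 6.4e-07, then -1.10 ± 0.16, adjusted p = 4.3e-05 and -1.41 ± 0.16, adjusted p = 5.2e-06), and Cdc27 fell without the correction and did not pass with it (-2.93 ± 0.30, adjusted p = 4.3e-07, and -0.03 ± 0.15, adjusted p = 0.86). At 12 against 3 months these 6 lists held 0 to 2 genes higher and 0 to 3 lower without the correction, against 6.30% and 8.87% of all genes. With the correction they held 0 to 5 higher and 0 to 4 lower, against 9.87% and 8.14%, and the most higher were 5 of the 15 genes of the anaphase-promoting complex. At 6 months none was called either way.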

How the data were processed

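Poly(A) RNA of 12 lungs was sequenced. The authors deposited counts of reads per gene and library, which were used for all tests, together with FPKM per library, used here for levels compared between genes. The log2 fold changes and p-values that the authors deposited were not used. The submitters' processing notes name TopHat, STAR 2.5, HTSeq 0.6.1 and mm10, without roles. No source used here gives the strand setting of the counting or how overlapping genes were treated.

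Counts were filtered with filterByExpr (16042 of 35275 genes), scaled by TMM and tested on all 12 libraries with the edgeR 4.0.16 quasi-likelihood F test (limma 3.58.1, R 4.3.3), age as a factor, Benjamini-Hochberg adjusted over all genes within a comparison. SE was the fold change over the root of F. The correction used each library's smooth (mgcv 1.9.3) of log2 counts on transcript GC content (GENCODE M21, 97.8% of gene IDs) and deposited gene length as an offset, over 15949 genes. DESeq2 1.42.0, limma voom, other filters and scalings, a replicate block and leave-one-out fits were alternatives.

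Every mouse is 1 library. The 40 genes, the lists and the tests were chosen with earlier results of these data known. Values in each mouse are given for Mki67, Top2a, Pcna, Cdk1 and Mcm2, for the 3 genes of each role with the smallest p over the 4 ages, for genes called at 12 or 6 against 3 months, and for genes called in opposite directions with and without the correction. Up to 4 genes with the smallest p are named from each list of other genes.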

Additional observations from a re-analysis of the deposited data

How the results depend on the processing

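At 24 against 3 months the number of the 40 genes lower was 6 with the GC and length offset, 7 with a GC offset and 6 with a replicate block and the GC and length offset together, instead of 21. At 24 against 12 months those 3 settings gave 6, 4 and 6 lower instead of 21, and for any difference among ages 21, 23 and 21 called instead of 36. At 12 against 3 months they gave 1, 1 and 1 higher instead of 0, and 0, 1 and 1 lower instead of 3. Also at 12 months, the 6 libraries of the pair alone gave 1 higher, the replicate block alone 1 lower, and the fit without the 24-month libraries 3 higher and 8 lower (4 higher with the offset). Leaving out 1 mouse gave 11 to 14 higher and 21 to 22 lower at 24 against 3 months, 0 to 3 higher and 0 to 11 lower at 12 against 3 months, 0 at 6 months, 14 to 15 higher and 19 to 21 lower at 24 against 12 months, and 34 to 37 for any difference. The count of 11 was without 12-month mouse 3, and without 24-month mouse 3 there were 3 higher and 8 lower at 12 months. With the offset in the same fits, an alternative added after seeing the data, the ranges were 10 to 15 higher and 5 to 7 lower at 24 against 3 months, 0 to 4 higher and 0 to 2 lower at 12 months, 8 to 16 higher (8 and 9 without 12-month mice 1 and 2) and 4 to 7 lower at 24 against 12 months, and 17 to 24 for any difference (18 without 12-month mouse 1 or 24-month mouse 3, and 20 without 3-month mouse 1 or 6-month mouse 1 or 2).

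Genes whose sign at 24 against 3 months turned with the GC and length offset, the GC offset and the block with the offset had log2 fold changes of 0.72, 0.43 and 0.72 (Mcm6), 0.45, 0.31 and 0.45 (Tyms), 0.67, 0.18 and 0.65 (Top2a), 0.57, 0.76 and 0.56 (Ccnb1), 0.18, 0.08 and 0.17 (Bub1), -0.67, -0.59 and -0.72 (Ube2c), and -0.45, -0.35 and -0.45 (E2f1). Cdk1 had 0.84 and 0.95 with the 2 offsets, Nusap1 0.04 and 0.05, and Mki67 0.12 and 0.14, with the GC and length offset and with the block added. Pcna had 0.37 with the GC offset, Rrm2 -0.71 on total gene reads, and Rrm1 0.42 at 12 months without the 24-month libraries and with the offset. The cause of these turns was not tested. RLE size factors, DESeq2, limma voom, no filter, and a mean CPM of at least 1 kept each count within 1.5 times. The mouse numbers were not taken to pair ages, since the residual correlation of same-numbered mice had a median of -0.054 over 18 pairs, with 4 over 0.1. With the replicate block 14 genes were higher and 21 lower at 24 against 3 months, and the calls of Dtl and Rrm2 at 12 against 3 months were lost. Depth limits most the genes with few reads at 24 months, among them Dtl, Kif11, Cenpe, Cenpf, Bub1 and Ccne2, and a change that did not pass the test is not shown to be absent.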
